A study of Mus musculus with 12 samples.

Results

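Costimulatory and checkpoint ligands are surface proteins through which a macrophage that presents antigen raises or restrains the T cell in front of it, and 9 genes of this kind, with related inhibitory receptors of the macrophage itself, are described here out of 22243 genes in the table. The members were taken by gene symbol: Cd80, Cd86, Icosl, Cd83, Cd274, Pdcd1lg2, Havcr2, Lgals9 and Cd200r1. Values are TPM, the abundance of a transcript scaled by its length and by the total of its library, summed per gene. Bone marrow-derived macrophages (BM-Mɸs) of C57Bl/6 background, grown with M-CSF from CMG14-12 conditioned medium, came from 6 LysMCre/ErbB4-floxxed mice (ErbB4myeKO) and 6 ErbB4-floxxed littermates (ErbB4FF), a pair from each of 6 litters. Both genotypes carry the floxed Erbb4 allele and differ in LysMCre, which is expressed from the Lyz2 locus in myeloid cells. All 12 cultures were M1 activated by IFN-γ (16 h at 100 U/mL) followed by LPS (6 h at 100 ng/mL), so resting cells were not analysed here. Neither the age nor the sex of each mouse is on the labels. The batch letter on the labels changes with the litter, so that litter, batch and culture cannot be told apart.

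CD80 and CD86 are the ligands of CD28, which activates T cells, and of CTLA-4, which restrains them. ICOS ligand acts through the related receptor ICOS. PD-L1 (Cd274) and PD-L2 (Pdcd1lg2) engage PD-1, an inhibitory receptor of activated T cells, and IFN-γ is a well-known inducer of PD-L1 in macrophages. CD83, a membrane protein best known from mature dendritic cells, protects CD86 and MHC class II from removal from the surface. TIM-3 (Havcr2) is an inhibitory receptor found on T cells and myeloid cells, galectin-9 (Lgals9) is a secreted lectin described as a TIM-3 ligand, and CD200R1 (Cd200r1) restrains myeloid cells that meet CD200.

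Each of the 9 genes was represented by 1 APPRIS principal transcript, and all 9 had a mean of at least 1 TPM. Positions are from GENCODE M21 (GRCm38). Chromosome 16 holds Cd86 (ENSMUSG00000022901, 36603869 to 36666081, minus strand), Cd80 (ENSMUSG00000075122, 38455561 to 38496335, plus strand) and Cd200r1 (ENSMUSG00000022667, 44765736 to 44794978, plus strand). Cd274 (ENSMUSG00000016496, 29367455 to 29388095, plus strand) and Pdcd1lg2 (ENSMUSG00000016498, 29410919 to 29471161, plus strand) are neighbours on chromosome 19, with 22.8 kb between them. Icosl (ENSMUSG00000000732, 78069302 to 78083913, plus strand) lies on chromosome 10 and Cd83 (ENSMUSG00000015396, 43784775 to 43803132, plus strand) on chromosome 13. Havcr2 (ENSMUSG00000020399, 46454935 to 46481255, plus strand) and Lgals9 (ENSMUSG00000001123, 78962974 to 78984946, minus strand) are both on chromosome 11.

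RefSeq promoters, from 250 bases before to 50 bases after a gene's start (GRCm38.p6), were at hand for 6 of the 9 genes. They were searched on both strands for the interferon-γ activated element GAS (TTCNNNGAA), for the interferon element ISRE (a repeat of GAAA after 2 other bases) and for the NF-κB consensus, which 8.30%, 3.44% and 8.46% of all 32851 promoters of this length held. Icosl and Pdcd1lg2 had an NF-κB match each, Lgals9 had 2 ISRE matches, and the windows of Havcr2, Cd80 and Cd274 had no match to these letters. The first pair is shown because their levels moved in opposite directions between litters, and Lgals9 because it held the ISRE matches. Capitals mark the matched bases, which are a description of sequence and not of binding. No pair of matches overlapped.
Icosl, chr10:78069118-78069417, plus strand: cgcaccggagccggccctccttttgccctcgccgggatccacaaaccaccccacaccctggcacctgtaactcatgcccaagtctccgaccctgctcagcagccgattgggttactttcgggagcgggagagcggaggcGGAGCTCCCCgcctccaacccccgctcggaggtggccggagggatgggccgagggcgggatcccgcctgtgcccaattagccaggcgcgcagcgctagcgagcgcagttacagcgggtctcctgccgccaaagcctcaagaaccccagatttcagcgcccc
Pdcd1lg2, chr19:29410669-29410968, plus strand: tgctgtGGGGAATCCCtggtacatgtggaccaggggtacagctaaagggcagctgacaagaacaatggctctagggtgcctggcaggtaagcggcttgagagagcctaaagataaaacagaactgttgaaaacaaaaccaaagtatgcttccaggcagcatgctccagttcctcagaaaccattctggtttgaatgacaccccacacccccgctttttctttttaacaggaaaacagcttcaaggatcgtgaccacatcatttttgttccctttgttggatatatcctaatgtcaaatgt
Lgals9, chr11:78984875-78985174, minus strand: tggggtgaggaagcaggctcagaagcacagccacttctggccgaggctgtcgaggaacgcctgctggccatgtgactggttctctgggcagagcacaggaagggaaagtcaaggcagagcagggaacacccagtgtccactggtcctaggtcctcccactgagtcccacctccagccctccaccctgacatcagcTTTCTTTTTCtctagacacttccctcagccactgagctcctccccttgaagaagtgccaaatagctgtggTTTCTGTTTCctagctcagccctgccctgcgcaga
The Icosl window is rich in G and C (68.0%), against 46.0% in that of Pdcd1lg2 and 58.0% in that of Lgals9. Counted from 0 at the RefSeq start, the NF-κB match lay at -111 to -102 in Icosl and at -244 to -235 in Pdcd1lg2, and the ISRE matches of Lgals9 lay at -55 to -46 and at 15 to 24. The RefSeq start lay 66 bases downstream of the GENCODE gene start given above in Icosl and 22 bases downstream in Lgals9, and was the same base in Pdcd1lg2. For Cd80 it lay 3372 bases downstream, so the window searched there is not at the GENCODE start.

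Erbb4 was 0.583 ± 0.242 TPM (SD, n = 6) in libraries labelled ErbB4myeKO and 0.450 ± 0.132 TPM (SD, n = 6) in those labelled ErbB4FF. The whole transcript is summed there, floxed exon or not. Erbb4 also lay below the filter of 1 TPM, at 0.280 to 0.852 TPM in the 12 libraries, so it is no check of the labels. Lyz2, the gene into which LysMCre is inserted, was lower in the ErbB4myeKO littermate in litters 1 to 5, by log2 ratios of -1.20 to -0.81, whereas in litter 6 the library labelled ErbB4myeKO held 7997 TPM and that labelled ErbB4FF held 2964 TPM, a log2 ratio of 1.43. The labels of litter 6 thus go against Lyz2, all libraries are named by their labels, and genotype differences of the 9 genes, their ratios and the listed genes are given without litter 6 as well. Of 7 macrophage markers all 7 were detected at a mean of at least 1 TPM, with Adgre1, Cd68 and Csf1r among them. All 6 T and NK cell markers stayed under 1 TPM in each of the 12 libraries, and the B cell and the mast cell and basophil markers each summed to at most 3.71 TPM. Among 9 dendritic cell markers, Ccr7, Xcr1, Itgax and Clec9a passed 1 TPM, the defining genes Flt3 and Zbtb46 did not, and Cd209a and Siglech were listed at 0. Both libraries of litter 5 stood apart: the deposited transcripts summed to 71.4% and 74.7% of all TPM, while the other 10 libraries had 59.0% to 64.9%. Results that rest on litter 5 are given without it as well.

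The 9 genes covered a wide range of levels in M1 BM-Mɸs. In order of the mean over the 12 libraries they were Cd274 (731 TPM), Cd86 (293 TPM), Icosl (55.6 TPM), Cd80 (45.2 TPM), Lgals9 (14.9 TPM), Cd200r1 (8.34 TPM), Pdcd1lg2 (7.47 TPM), Havcr2 (4.23 TPM) and Cd83 (4.20 TPM). Cd274 ranked 137 and Cd86 ranked 372 among the 8780 genes whose mean reached 1 TPM, whereas Cd83 ranked 6137. Cd274 exceeded Cd86 in 12 of 12 libraries, by a log2 of 1.30 ± 0.36 (SD, n = 6 litters), and Cd86 exceeded Icosl in 12 of 12. Cd80 exceeded Lgals9 in 11 of 12 libraries. These 3 steps each had an exact sign-flip permutation p of 0.0312 over 6 litters, the smallest that the 64 flips can give, and 0.0833 after adjustment over the 8 neighbouring pairs. None of the 8 steps thus passed 0.05 after adjustment. In the other steps the order varied between libraries: Icosl and Cd80 swapped places in 6 of 12 libraries (adjusted exact permutation p = 0.688), Lgals9 lay above Cd200r1 and Cd200r1 above Pdcd1lg2 in 9 of 12 each (adjusted exact permutation p = 0.150 for both), and Pdcd1lg2 lay above Havcr2 in 7 of 12 (adjusted exact permutation p = 0.679). By the litter means of log2 values Cd83 lay above Havcr2, opposite to the order of mean TPM (adjusted exact permutation p = 0.5).

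None of the 9 genes differed between the genotypes at an adjusted p of 0.05. This was so of all genes, as limma with litter as a block called 0 of 8780 (0%, smallest adjusted p = 0.603). At an unadjusted p under 0.05 limma gave 721 genes (8.21%), and 1 of the 9 members, Icosl, was among them. The members' median log2 fold change was -0.02, beside 0.00 over all genes tested, and their median absolute log2 fold change was 0.12, beside 0.13. In each of the 9 genes the range of the libraries labelled ErbB4myeKO overlapped that of the libraries labelled ErbB4FF. At the level of transcripts, limma gave an unadjusted p under 0.05 for 678 of 10085 (6.72%), and the Icosl transcript was the 1 of a member among them. Of the 9, 0 moved in the same direction in all 6 litters, as 4.82% of all genes tested did. Without litter 6, limma called 0 genes (smallest adjusted p = 0.0556) and 5.82% of genes, Icosl the 1 member among them, had an unadjusted p under 0.05. The log2 fold changes were then 0.13 for Cd80, -0.09 for Cd86, 0.77 for Icosl, -0.02 for Cd83, -0.03 for Cd274, -0.49 for Pdcd1lg2, 0.51 for Havcr2, -0.10 for Lgals9 and -0.05 for Cd200r1. Each of the 9 had the same sign as with 6 litters. The ratios within a library that are given below differed between the genotypes by log2 values of 0.22 (Cd80 to Cd86), 0.46 (Cd274 to Pdcd1lg2), 0.06 (Cd274 to Cd86) and 0.61 (Havcr2 to Lgals9) without litter 6.

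**Figure D1:**
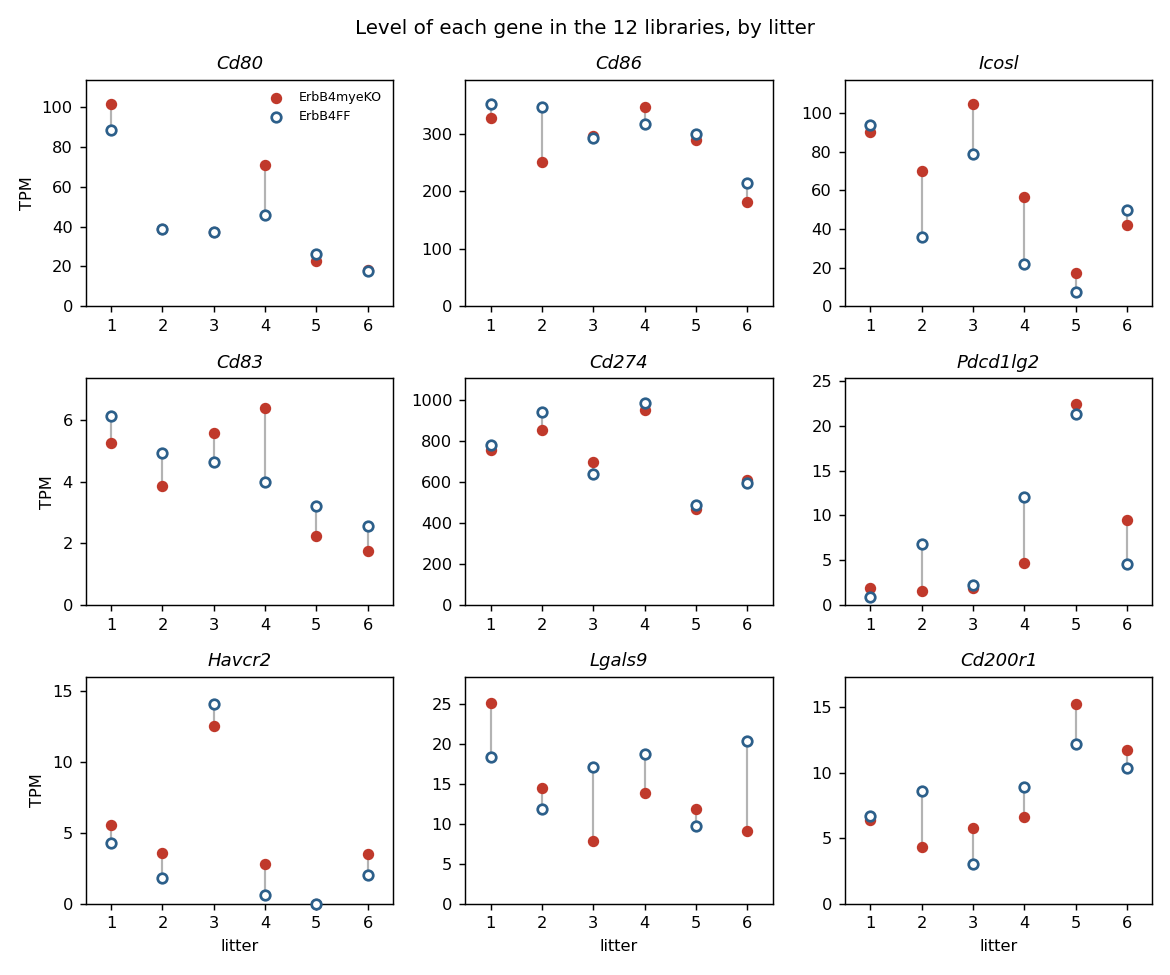
TPM of each of the 9 genes (vertical axes, each starting at 0) in litters 1 to 6 (horizontal axes). Filled points are the libraries labelled ErbB4myeKO, open points their ErbB4FF littermates, and a grey line joins a pair. Littermates of Cd274 lie close together. Those of Cd80 are farthest apart in litter 4 (71.0 and 46.0 TPM), while its litter means span 5.33-fold. The 2 highest values of Pdcd1lg2 are both in litter 5.

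Cd80, the CD28 ligand that macrophages raise on activation, differed little between littermates and much between litters. For litters 1 to 6 the libraries labelled ErbB4myeKO held 101, 38.7, 37.1, 71.0, 23.0 and 18.0 TPM. Their ErbB4FF littermates held 88.4, 38.7, 37.1, 46.0, 26.1 and 17.6 TPM. Both libraries of litter 1 were the highest of their group and both of litter 6 the lowest, and in litters 2 and 3 the littermates were nearly equal. On the log2 scale the ratio of ErbB4myeKO to ErbB4FF averaged 0.11 ± 0.28 (SD, n = 6 litters). It was positive in 3 litters and largest in litter 4, at 0.62. Limma gave a 95% confidence interval of -0.14 to 0.36 for it and an adjusted p of 0.748.

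Cd86, the CD28 ligand that is present before activation, was the steadier of the pair. Libraries labelled ErbB4myeKO held 327, 251, 296, 346, 290 and 181 TPM in litters 1 to 6, and those labelled ErbB4FF held 351, 346, 291, 317, 299 and 214 TPM. Litter 6 was the lowest in both groups. Littermates differed by -0.12 ± 0.21 on the log2 scale (SD, n = 6 litters), the ErbB4myeKO library being the lower in 4 litters, with a limma interval of -0.31 to 0.08 and an adjusted p of 0.671. The ratio of Cd80 to Cd86 within a library, which does not depend on how the library is scaled, stood at a log2 of -2.76 ± 0.70 in the libraries labelled ErbB4myeKO and -2.99 ± 0.58 in those labelled ErbB4FF (SD, n = 6 each). It was higher in the ErbB4myeKO littermate in 4 of 6 litters, by 0.23 ± 0.25 (SD, n = 6 litters, exact permutation p = 0.125, adjusted p = 0.250 over 4 ratios).

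Icosl, the ligand of ICOS, had the largest mean difference between littermates of the 9 genes in the main fit. That of Havcr2 was larger with a pseudocount of 0.1 (0.66 against 0.61), without litter 3 (0.68 against 0.64) and without litter 5 (0.65 against 0.48). In the libraries labelled ErbB4myeKO, Icosl was 90.4, 69.8, 104, 56.3, 17.3 and 42.2 TPM in litters 1 to 6. It was 94.0, 35.9, 78.7, 21.8, 7.32 and 49.7 TPM in those labelled ErbB4FF. The ErbB4myeKO littermate was the higher in litters 2, 3, 4 and 5 and slightly the lower in litters 1 and 6. On the log2 scale this came to 0.60 ± 0.66 (SD, n = 6 litters), a 1.52-fold difference with a limma interval of 1.05-fold to 2.19-fold and an unadjusted p of 0.0304. It did not pass adjustment over all genes (adjusted p = 0.603), and the exact permutation p over swaps within litters was 0.125. Without litter 5, where Icosl was lowest, the log2 fold change was 0.48 (limma, unadjusted p = 0.0868). Without litter 6 it was 0.77, with an interval of 0.26 to 1.28 (limma, unadjusted p = 0.00989, adjusted p = 0.767).

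Cd83 was low in all libraries. It stood at 5.25, 3.84, 5.58, 6.37, 2.22 and 1.74 TPM in the libraries labelled ErbB4myeKO of litters 1 to 6 and at 6.12, 4.92, 4.64, 3.98, 3.20 and 2.56 TPM in those labelled ErbB4FF. Litters 5 and 6 were the lowest in both groups. The ratio between littermates was -0.09 ± 0.43 on the log2 scale (SD, n = 6 litters), with a limma adjusted p of 0.880. Cd83 and Cd86, whose proteins are linked at the cell surface, had log2 ratios of the same sign in 6 of 6 litters, an agreement picked out of 36 pairs of genes after their values were seen.

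Cd274, which encodes PD-L1, was the most abundant of the 9 genes and the least variable between littermates. Libraries labelled ErbB4myeKO held 756, 855, 700, 953, 467 and 611 TPM in litters 1 to 6, and those labelled ErbB4FF held 780, 940, 639, 987, 487 and 596 TPM. Litter 4 was the highest and litter 5 the lowest in both groups. The log2 ratios lay between -0.14 and 0.13, with a mean of -0.02 ± 0.09 (SD, n = 6 litters), and limma's 95% interval ran from 0.903-fold to 1.08-fold (adjusted p = 0.914). Counted over both strands, 14.6% of the 31-mers of the Cd274 transcript are shared with other genes. The largest share, 12.1%, is with AC119228.1, an antisense gene within Cd274. Whether strand was used in the quantification is not given in the sources used here. Beside the CD28 ligand Cd86, Cd274 was 0.10 ± 0.19 higher on the log2 scale in the ErbB4myeKO littermate (SD, n = 6 litters, exact permutation p = 0.312, adjusted p = 0.417).

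Pdcd1lg2, the gene of PD-L2 that lies next to Cd274, was far less abundant than its neighbour. It was 1.89, 1.60, 1.85, 4.69, 22.4 and 9.43 TPM in the libraries labelled ErbB4myeKO of litters 1 to 6 and 0.900, 6.79, 2.25, 12.1, 21.3 and 4.56 TPM in those labelled ErbB4FF. Both libraries of litter 5 were far above the others, in the litter where Cd274 was lowest. Over the litter means the pair had r = -0.50 (exact permutation p = 0.311, adjusted p = 0.460) and rho = -0.26 (exact permutation p = 0.658, adjusted p = 0.765), and r was 0.17 without litter 5 and -0.39 without litters 4 and 5. Between littermates the log2 ratio ranged from -1.79 in litter 2 to 0.97 in litter 6, with a mean of -0.25 ± 1.10 (SD, n = 6 litters), and the limma interval was wide, from 0.458-fold to 1.55-fold (adjusted p = 0.849). The log2 ratio of Cd274 to Pdcd1lg2 within a library ran from 4.35 to 9.12. It was 0.23 ± 1.06 higher in the ErbB4myeKO littermate (SD, n = 6 litters), higher in 3 litters and lower in 3, which did not pass the exact permutation test.

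Havcr2, the gene of TIM-3, was among the least abundant of the members. Its deposited mean of log normalized counts corresponds to 26.3 estimated counts, where that of Cd274 corresponds to 15665. The libraries labelled ErbB4myeKO held 5.52, 3.59, 12.5, 2.83, 0 and 3.5 TPM in litters 1 to 6 and those labelled ErbB4FF held 4.28, 1.83, 14.1, 0.610, 0 and 2.01 TPM. Litter 3 was the highest in both groups, and in litter 5 the gene was listed at 0 in both. An exact 0 can be a failed estimate of this transcript, so the ratio of 0 in that litter carries little. The ErbB4myeKO littermate was the higher in 4 litters and the lower in litter 3. Over the litters the ratio averaged 0.54 ± 0.63 on the log2 scale (SD, n = 6 litters), with a limma unadjusted p of 0.0556 and adjusted p of 0.603 and an exact permutation p of 0.125. Without litter 5 it was 0.65 (limma, unadjusted p = 0.0390), without litter 6 it was 0.51 (limma, unadjusted p = 0.114), and without litter 4 it fell to 0.33.

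Lgals9, the gene of galectin-9, was detected in all libraries at moderate levels. It was 25.1, 14.5, 7.85, 13.9, 11.9 and 9.16 TPM in the libraries labelled ErbB4myeKO and 18.3, 11.9, 17.2, 18.8, 9.70 and 20.4 TPM in those labelled ErbB4FF of litters 1 to 6. The ErbB4myeKO library was the higher in litters 1, 2 and 5 and the lower in litters 3, 4 and 6. Littermates differed on average by -0.27 ± 0.71 on the log2 scale (SD, n = 6 litters, limma adjusted p = 0.740). The deposited transcript shares 98.3% of its 31-mers with other transcripts of Lgals9. This share was 97.9% for Icosl, 91.8% for Havcr2, 85.7% for Pdcd1lg2 and 81.9% for Cd83. In the other members it ran from 0% (Cd274) to 68.4% (Cd80). How reads were divided among the transcripts of a gene was not tested. The ratio of Havcr2 to Lgals9 was 0.81 ± 0.95 higher on the log2 scale in the ErbB4myeKO littermate (SD, n = 6 litters), higher in 4 of 6 litters (exact permutation p = 0.125, adjusted p = 0.250).

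Cd200r1, the receptor of CD200, was 6.43, 4.35, 5.79, 6.60, 15.3 and 11.8 TPM in the libraries labelled ErbB4myeKO of litters 1 to 6 and 6.68, 8.60, 3.05, 8.90, 12.2 and 10.4 TPM in those labelled ErbB4FF. Litters 5 and 6 were the highest in both groups. Littermates differed in both directions, by -0.01 ± 0.60 on the log2 scale (SD, n = 6 litters), with a limma interval of 0.705-fold to 1.40-fold (adjusted p = 0.991). With Cd200r4, an activating paralog on the same chromosome, the Cd200r1 transcript shares 4.62% of its 31-mers, so a small part of its reads cannot be told apart from that gene.

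**Figure D2:**
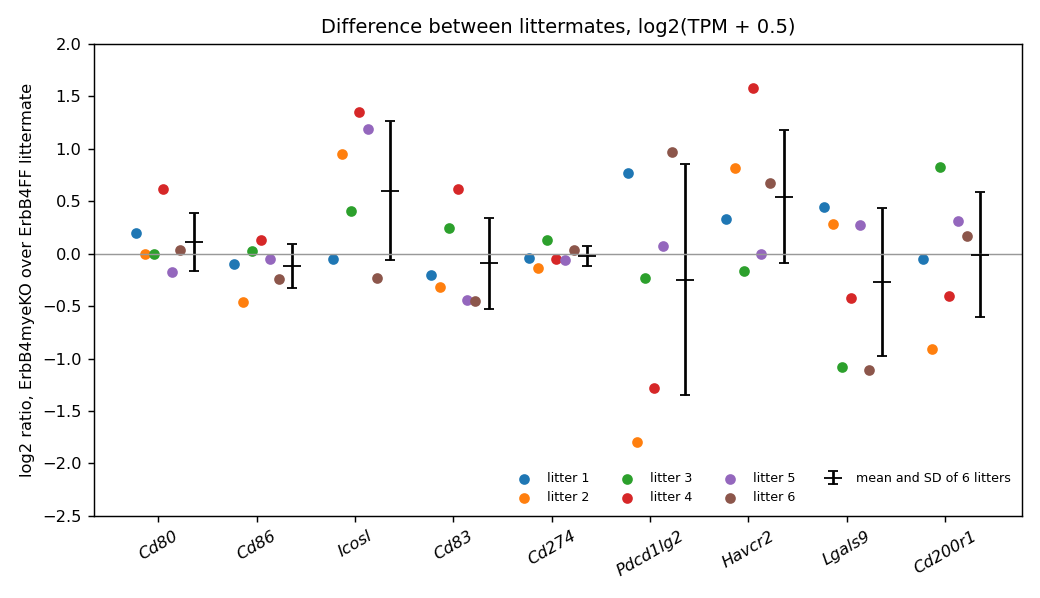
Log2 ratio of the library labelled ErbB4myeKO to its ErbB4FF littermate for each gene (vertical axis, log2(TPM + 0.5)). Coloured points are the 6 litters and the black mark is their mean with the SD. Cd274 stays between -0.14 and 0.13, Icosl has the highest mean, at 0.60, and the points of each gene lie on both sides of 0.

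Levels of the 9 genes were also compared between litters. In the same limma fit, a test of the litter term that was added after the values were seen called 7 of the 9 genes at an adjusted p of 0.05, beside 44.9% of the 8780 genes. The median F of the members was 8.01 and that of all genes tested was 4.50. The adjusted p was 0.000858 for Cd80, 0.00135 for Cd274, 0.00160 for Havcr2, 0.00535 for Icosl, 0.0212 for Pdcd1lg2, 0.0226 for Cd86 and 0.0409 for Cd83 in limma. It was 0.0576 for Cd200r1 and 0.389 for Lgals9. From the lowest to the highest litter mean, levels spanned 15.7-fold for Pdcd1lg2, 7.48-fold for Icosl and 5.33-fold for Cd80, beside 2.03-fold for Cd274 and 1.72-fold for Cd86. Without litter 5 the spans were 6.02-fold for Pdcd1lg2, 2.36-fold for Icosl, 5.33-fold for Cd80, 1.61-fold for Cd274 and 1.72-fold for Cd86. Without litter 5, limma called 3 members, Cd80, Cd274 and Havcr2, beside 11.5% of all genes. Without litter 6 it called 5, beside 38.9% of all genes, and Cd86 (adjusted p = 0.549) and Cd83 (adjusted p = 0.148) were not among them. With a covariate from Y-linked genes in the fit, it called 2, Cd80 and Havcr2, beside 9.53% of all genes.

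Between litters the levels of some members moved alike and those of others moved in opposite directions, though 0 pairs passed adjustment. Icosl and Havcr2 were highest in litters 1 and 3 and lowest in litter 5, and Pdcd1lg2 was lowest in litters 1 and 3 and highest in litter 5. Over the 6 litter means of log2 values, Icosl and Pdcd1lg2 had r = -0.97 (exact permutation p = 0.00139) and rho = -1 (exact permutation p = 0.00278), and r was -0.93 with litters 1 and 5 left out. After adjustment over the 36 pairs of members the smallest p was 0.05 by r, and 0 pairs fell below 0.05, whereas 9 did without adjustment. The share over pairs of all genes was not computed, so nothing about the members is read from that count. Within litters the log2 ratios of Icosl and Pdcd1lg2 had the same sign in 1 of 6 litters. Icosl and Havcr2 had r = 0.96 (exact permutation p = 0.00556, adjusted p = 0.1) and rho = 0.89 (exact permutation p = 0.0333, adjusted p = 0.300), with r = 0.99 when litters 1 and 5 were left out. Cd80 and Cd83 had r = 0.90 (exact permutation p = 0.0153, adjusted p = 0.125) and rho = 0.83 (exact permutation p = 0.0583, adjusted p = 0.420), with r = 0.85 when litters 1 and 6 were left out. Litters left out together here are those in which the first-named gene of the pair lay farthest from its median. For the following pairs r fell without them. Cd86 and Cd83 had r = 0.83 (exact permutation p = 0.0153, adjusted p = 0.125) and rho = 0.66 (exact permutation p = 0.175, adjusted p = 0.420), with r = 0.42 without litters 1 and 6. Havcr2 and Cd200r1 had r = -0.87 (exact permutation p = 0.0292, adjusted p = 0.150) and rho = -0.71 (exact permutation p = 0.136, adjusted p = 0.420), with r = -0.23 without litters 3 and 5. Without litter 5, r was -0.95 for Icosl and Pdcd1lg2, 0.89 for Icosl and Havcr2 and 0.88 for Cd80 and Cd83 (5 litters, as a description). It was then 0.98 for Cd86 and Cd83 and -0.73 for Havcr2 and Cd200r1. All values of a litter share its cultures and batch.

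Genes listed as markers of other cells differed between litters as well. Summed over the 9 dendritic cell markers, most of it from Ccr7, the level ran from 57.3 to 136 TPM in the libraries labelled ErbB4myeKO and from 39.6 to 106 TPM in those labelled ErbB4FF, with litter 1 the highest in both groups, as for Cd80. Ccr7 is also in the authors' M1 gene set, so this sum is not particular to dendritic cells. The sum was higher in the ErbB4myeKO littermate in 5 of 6 litters. Among these were litter 6 (58.8 and 40.6 TPM), whose labels go against Lyz2, and litter 4 (93.0 and 49.9 TPM). In litter 4 Icosl, Havcr2, Cd80, Cd83 and Cd86 had their highest log2 ratios, while those of Cd274, Pdcd1lg2, Lgals9 and Cd200r1 were below 0. The 7 neutrophil markers summed to 184 and 162 TPM in litter 5 and to 355 and 141 TPM in litter 6 (ErbB4myeKO and ErbB4FF in turn), and to between 36.6 and 69.0 TPM in litters 1 to 4. This sum came from S100a8 and S100a9, while Ly6g, Mpo, Elane and Cxcr2 stayed under 1 TPM and Retnlg was listed at 0. Whether such cells were present, and their part in the differences between litters or littermates, was not tested. In bulk RNA fewer cells of a type and less RNA per cell cannot be told apart.

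**Figure D3:**
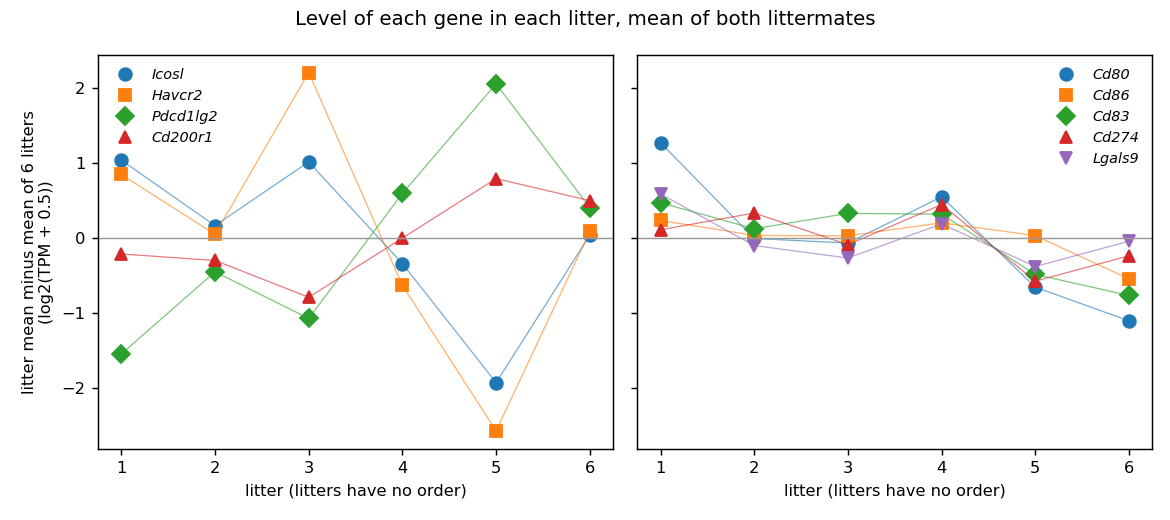
Mean log2(TPM + 0.5) of both littermates of a litter, less the mean of the 6 litters (vertical axis), for each gene and litter (horizontal axis). The left panel shows Icosl and Havcr2 low and Pdcd1lg2 and Cd200r1 high in litter 5. The right panel shows Cd80 spanning the widest range of the other 5 genes, from 1.28 in litter 1 to -1.10 in litter 6, and lines only join the points of a gene.

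For each member, the genes with the most similar pattern over the 12 libraries were found by Pearson's r among 5775 genes whose mean reached 5 TPM. The libraries share litters, so r is a description of likeness and has no p, and over the 10 libraries without litter 5 the values below ran from 0.82 to 0.96. Cd80 was most like Ccl22 (r = 0.94), a chemokine of activated macrophages and dendritic cells, and Syngr2 (r = 0.93). Cd86 resembled Il2rg (r = 0.93), the common γ chain of cytokine receptors, and Lrrc4 (r = 0.92). Icosl resembled Ipo7 (r = 0.96) and Rnf24 (r = 0.96), and Cd83 resembled Syf2 (r = 0.94) and Inpp5b (r = 0.93). Cd274 went most closely with Atf6 (r = 0.98), a sensor of endoplasmic reticulum stress, and with the interferon-inducible Trim30a (r = 0.97). Pdcd1lg2 resembled Eif2b2 (r = 0.94) and Rap1a (r = 0.94). Havcr2 went with Ptgs2 (r = 0.97), the prostaglandin synthase COX-2, and with the integrin gene Itgb8 (r = 0.97), and Cd200r1 with Slc25a45 (r = 0.95). Lgals9 had the weakest likeness, to Armc5 (r = 0.85) and Rnf10 (r = 0.84).

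Other genes of these pathways, 64 in 6 lists, were read in the same fit. Of these, 63 were in the table, 43 reached a mean of 1 TPM and 0 passed an adjusted p of 0.05 (smallest 0.603 in limma). At an unadjusted p under 0.05 1 gene was higher and 2 were lower with the ErbB4myeKO label, beside 3.83% and 4.38% of all genes. Their median log2 fold change was -0.01.
Among B7 and butyrophilin relatives, only Vsir (VISTA, an inhibitory B7 protein) of 8 genes in the table was tested. It stood at 81.1 TPM on average, with a fold change of -0.13 on the log2 scale and a standard error of 0.08, and was lower in the ErbB4myeKO littermate in 5 of 6 litters. Cd276, Vsig4 and Vtcn1 were below 1 TPM on average.

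Of 14 other costimulatory and adhesion ligands 11 were tested, and Tnfsf18, Cd70 and Ceacam1 were below 1 TPM on average. Those with a mean of 100 TPM or more are given first. Slamf7 (983 TPM) and Icam1 (759 TPM), the ligand of the integrin LFA-1, differed by 0.04 (standard error 0.05) and 0.06 (standard error 0.09) on the log2 scale. Cd48 (565 TPM), Cd40 (132 TPM) and Slamf1 (106 TPM) had -0.01, 0.12 and -0.15. Tnfsf15, which encodes the TNF family ligand TL1A, was higher in the ErbB4myeKO littermate in 6 of 6 litters, by 0.45 ± 0.38 (SD, n = 6 litters, exact permutation p = 0.0312, limma adjusted p = 0.603), as 4.82% of all genes had 1 sign in 6 litters. With litter 6 left out it was higher in 5 of 5 litters, where an exact permutation test gives no p below 0.0625. The share of all genes with 1 sign in these 5 litters is not given here. Pvr, a ligand of the T cell receptors CD226 and TIGIT, had 0.20 (standard error 0.12) and was higher in 5 of 6 litters. Without litter 2 it had 0.09.
Of 11 other inhibitory receptors and ligands, 9 were tested. Sirpa (311 TPM), the receptor of CD47, differed by -0.04 and Pilra by 0.13. Lilrb4a had -1.22 (standard error 0.74), which rests on the library labelled ErbB4myeKO of litter 3, at 4.38 TPM where the next lowest library had 95.6 TPM.

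Of 10 T cell counter-receptors, 2 reached a mean of 1 TPM and were tested, Btla (4.67 TPM) and Lag3 (2.29 TPM). Btla differed by 0.34 on the log2 scale (standard error 0.30), and by 0.04 without litter 3. Lag3 was lower in the ErbB4myeKO littermate in 5 of 6 litters, by -0.81 on the log2 scale (standard error 0.35, limma unadjusted p = 0.0489, adjusted p = 0.603).
All 10 protein partners of the members were tested. Cmtm6, whose protein keeps PD-L1 at the cell surface, was 93.5 ± 14.3 TPM in libraries labelled ErbB4myeKO and 108 ± 28.4 TPM in those labelled ErbB4FF (SD, n = 6 each). It was lower in the ErbB4myeKO littermate in 5 of 6 litters (exact permutation p = 0.156, limma adjusted p = 0.629). Its log2 fold change was -0.19, and -0.10 without litter 2. March8, a ubiquitin ligase that removes CD86 from the surface, differed by -0.52 on the log2 scale (standard error 0.30). Its lowest library held 6.15e-07 TPM, and the difference was -0.81 with a pseudocount of 0.1 and -0.34 without litter 3.
Of the 10 genes of interferon-γ and NF-κB signalling, which act upstream of several members, Ifngr2 and Stat3 were lower in the ErbB4myeKO littermate in 6 of 6 litters, by log2 ratios of -0.20 ± 0.10 and -0.15 ± 0.16 (SD, n = 6 litters, exact permutation p = 0.0312 for each). Limma's adjusted p was 0.603 for both, and 4.82% of all genes had 1 sign in 6 litters. With litter 6 left out both were lower in 5 of 5 litters, where the smallest exact permutation p is 0.0625. The share of all genes with 1 sign in these 5 litters is not given here. On the log2 scale Irf1 (504 TPM) differed by -0.05, Nfkb1 (227 TPM) by 0.15, Jak2 (218 TPM) by 0.02 (0.36 by its highest transcript alone, limma adjusted p = 0.640) and Rela (104 TPM) by 0.03. Cd274, which these factors induce, differed by -0.02 in the same fit.
Without litter 6, 2 of the listed genes had an unadjusted p under 0.05 in limma, beside 5.82% of all genes. These were Tnfsf15, at a log2 fold change of 0.37, and Ifngr2, at -0.22. Stat3 then stood at -0.17, Lag3 at -0.90, Cmtm6 at -0.18, March8 at -0.57, Lilrb4a at -1.52, Btla at 0.49, Pvr at 0.18, Vsir at -0.07, Cd40 at 0.16, Slamf1 at -0.17, Slamf7 at 0.02, Icam1 at 0.13, Pilra at 0.09, Nfkb1 at 0.12, Irf1 at -0.00585 and Rela at 0.04. The sign turned for Cd48 (0.03), Sirpa (0.03) and Jak2 (-0.03), whose differences were close to 0 in both fits.

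**Figure D4:**
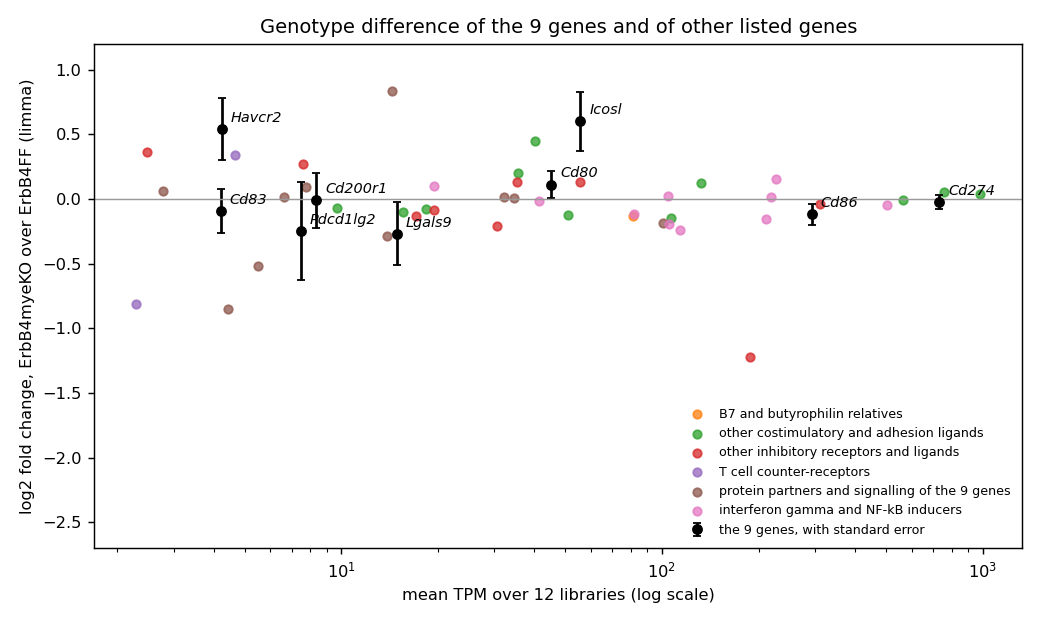
Limma log2 fold change of ErbB4myeKO over ErbB4FF (vertical axis) against mean TPM over the 12 libraries (horizontal axis, log scale) for the 9 genes, in black with their standard error, and for the 43 other listed genes tested, coloured by list. Most listed genes lie near 0. Icosl and Havcr2 lie above 0 but below the highest listed gene, at 0.84. The lowest point, at -1.22, is Lilrb4a.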

How the data were processed

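RNA was sequenced from 12 BM-Mɸ cultures, and the groups and litter numbers are from the labels. The authors pseudoaligned reads with kallisto, and the deposited values are TPM of APPRIS principal transcripts. The submitters' processing notes name CASAVA, kallisto, sleuth and mm10, and versions are not given in the sources used here. A deposited column holds sleuth's mean natural log of normalized estimated counts and was used only for depth. Columns of the authors' own comparison (p, q and log2 ratio) were not used.

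The 405 repeated lines of 29213 were dropped, leaving 28808 transcripts. Sums of TPM per gene were put on a log2(TPM + 0.5) scale. The 8780 genes whose mean reached 1 TPM were fitted by genotype and litter in limma 3.58.1 (R 4.3.3, moderated with a trend), and p-values were adjusted by Benjamini-Hochberg. TPM are not counts, so no count model was run. The table gives no depth for single libraries, and the number of litters limits the precision. Littermates correlated (r between 0.273 and 0.774 in the 6 litters, across genes), and the design text states the pairing. Single genes and ratios were tested by two-sided exact permutation over 64 swaps within litters (smallest p = 0.0312). Each culture came from a separate mouse. Shared sequence was counted as 31-mers of GENCODE M21 transcripts, where the Pdcd1lg2 transcript has another version than in the table. Other steps ran in Python 3.11.15 (matplotlib 3.10.9, scipy 1.17.1, pandas 2.3.3, numpy 2.4.6).

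On simulated TPM of 8780 genes, with 200 changed by genotype, the fit recovered 81% of log2 changes of 1 and 93% of log2 changes of 2, and 11 of 185 calls were of unchanged genes.

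The members and lists were chosen with earlier results of these data known. The lists are B7 and butyrophilin relatives, other costimulatory and adhesion ligands, other inhibitory receptors and ligands, T cell counter-receptors, protein partners, and interferon-γ and NF-κB inducers. Named genes are the members, of each list the 2 genes with the smallest p and those with a mean of 100 TPM or more, the 2 genes most like each member, and Erbb4. Of the genes this rule names, 2 are not reported here. Others (markers and paralogs) were chosen after their values were seen. Alternatives were no block, a covariate from 4 Y-linked genes in place of sex, pseudocounts of 0.1 and 1, no filter, a minimum mean of 5 TPM, median-ratio rescaling, limma without trend, each litter left out, and the highest transcript alone.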

Additional observations from a re-analysis of the deposited data

Results flagged for a closer look

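Of 27 sets of 6 values examined, the TPM of each gene in each group and its ratios within litters, 1 was flagged because a sample lay far from the others. Havcr2 was 14.1 TPM in the library labelled ErbB4FF of litter 3, where its gap to the next library made up 0.696 of the range of the group, above Dixon's 95% limit for 6 samples. Chance flags about 1 in 20 sets. The library labelled ErbB4myeKO of the same litter, at 12.5 TPM, was the highest of its group too.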

How the results depend on the processing

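No alternative brought any of the 9 genes to an adjusted p of 0.05 for genotype. Without litter as a replicate block, 0 members, 0 member transcripts, 0 other listed genes and 75 of all genes had an unadjusted p under 0.05, in place of 1, 1, 3 and 721, and the block changed no call at the adjusted p. With the covariate in place of sex, 5 other listed genes had an unadjusted p under 0.05, and the litter term called 2 members (Cd80 and Havcr2) beside 9.53% of all genes. The cause of these shifts was not tested. With each litter left out, counts at an unadjusted p under 0.05 were 0 to 2 members (0 without litter 2 or 4, and Icosl and Havcr2 without litter 3), 0 to 1 member transcripts, 2 to 5 other listed genes (5 without litter 5) and 413 to 864 of all genes (413 without litter 2, 458 without litter 4). Without litter 3, 1 of all genes, Igkv1-88, passed the adjusted p (0.0490), in place of 0. The litter term called 3 to 8 members, 3 of them without litter 5 (11.5% of all genes), 5 without litter 6 (38.9%) and 8 without litter 2 (46.5%). Directions turned when a litter was left out for Cd274 (-0.0515 to 0.00219, log2 fold change), Pdcd1lg2 (-0.492 to 0.0609), Cd200r1 (-0.176 to 0.170), Cd48 (-0.0454 to 0.0343), Sirpa (-0.0899 to 0.0275), Jak2 (-0.0300 to 0.0442) and Rela (-0.000426 to 0.0859), and with the covariate for Cd48 (0.0136) and Jak2 (-0.00711). By the highest transcript alone Jak2 was 0.361, and with a pseudocount of 0.1 March8 was -0.809. They also turned for the ratio of Cd274 to Pdcd1lg2 (-0.0587 to 0.460), the step from Icosl to Cd80 (-0.0336 to 0.450) and that from Pdcd1lg2 to Havcr2 (-0.0828 to 1.5). With 5 litters the swaps give no p below 0.0625. The spread of 6 litters limits what could be detected, most for Pdcd1lg2, and depth is lowest for Havcr2, Pdcd1lg2 and Cd83. Spans, correlations and likeness without litter 5 were added after the data were seen.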
